A study of Drosophila busckii and Drosophila melanogaster and Drosophila virilis with 5 samples.

Results

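Chromosome arm 3L was examined in embryos of 3 fly species, D. melanogaster, D. busckii and D. virilis. All boundaries that the deposited lists place on 3L were taken, together with the topologically associating domains (TADs) between the centres of consecutive boundaries. There were 1232 such boundaries of 6470 in the 3 lists. D. melanogaster had 444 of 2209 on 3L, D. busckii 390 of 2134 and D. virilis 398 of 2127, which bounded 443, 389 and 397 TADs. For D. virilis the 2785 genes that its annotation places on 3L were used as well, 2605 of them protein coding, of 14493 on all arms.

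Contacts were measured by in situ Hi-C, which ligates and sequences pairs of loci that lie close together in the nucleus, after cutting chromatin with DpnII. The groups were laboratory stocks without treatment or transgene in the labels: D. melanogaster w1118 Oregon R, and D. busckii and D. virilis of the San Diego stock center (stock numbers 13000-0081.31 and 15010-1051.0). All were mixed-sex whole embryos of stage 15 to 16, so each map averages over all embryonic cell types. Each species has 1 map, summed by the authors from 2 replicates, and 1 list of boundaries. No difference between species below therefore has a replicate error, and none was tested. Intervals in parentheses are exact binomial 95% intervals, which treat the TADs or boundaries of a list as independent and leave out the spread between embryos and libraries. D. busckii embryos were fixed by another procedure and unligated DNA ends were removed from their libraries with an enzyme, so species and protocol cannot be told apart where D. busckii differs. The labels give no tissue that markers could check.

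Loci within a TAD meet more often in the nucleus than loci of adjoining TADs, and a boundary is the place where contacts drop. The left arm of chromosome 3 is Muller element D, a conserved element of the fly genome whose genes mostly stay on the same element between species while their order within it is shuffled. In D. melanogaster it carries the Iroquois and bric-a-brac developmental genes, the cell death genes around hid and reaper, and clusters for eggshell, glue, cuticle and small heat shock proteins. Toward the centromere the arm passes into pericentric heterochromatin, which is rich in repeats and poor in genes. Boundaries in flies often lie at promoters of broadly used genes, where proteins such as M1BP and BEAF-32 bind.

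The sequences at the boundaries of D. melanogaster were read first, from the RefSeq genome of its Release 6 assembly. The letters GGTCACACT (Motif 1, bound by M1BP) were found on either strand within 500 bp of 44 of the 444 boundary centres of 3L, or 9.91% (7.29 to 13.1), and in 1.01% of 27261 consecutive windows of the same length, 1001 bp, along the arm. The letters TATCGATA (BEAF-32/DRE, bound by BEAF-32 and by the replication-related factor DREF) were found at 48 boundaries, or 10.8% (8.08 to 14.1), and in 2.51% of windows. Windows of that length around the 2732 coding gene starts of the arm held them at 9.66% and 9.99%, so the boundaries and the gene starts held both at similar shares. The GAGA letters GAGAGAG and the CTCF core AGNNGGCGC (N, any base) were at 13.5% and 14.4% of boundaries, against 11.2% and 8.04% of windows. Around the coding gene starts their shares were 12.3% and 9.74%. The interval of the CTCF share at boundaries was 11.3 to 18.0. No BEAF-32/DRE match overlapped a Motif 1 match, and 5 boundaries held both. The 4 lowest-scoring boundaries with each of the first pair of motifs are shown because a low score marks the places of 3L that fewest contacts cross. Each line gives 10 bases to each side of the match nearest to the centre, 5′ to 3′, with the motif in capitals.
Motif 1 at Aps, chr3L:10899095-10899123, minus strand: atagtcgcacGGTCACACTctttgaaagt
Motif 1 at ArfGAP1, chr3L:12417651-12417679, minus strand: gttgcactttGGTCACACTgcaaaacaaa
Motif 1 at Mbs, chr3L:16051906-16051934, minus strand: cttttcgcctGGTCACACTaacgccgctc
Motif 1 at NHP2, chr3L:14802143-14802171, minus strand: gtcgatccgcGGTCACACTgaacacgtgt
BEAF-32/DRE at Ptp69D, chr3L:12734908-12734935: tcgactgactTATCGATAacgccgcata
BEAF-32/DRE at ArfGAP1, chr3L:12417697-12417724: aattgcgataTATCGATAgtttattgaa
BEAF-32/DRE at CG14995, chr3L:4103005-4103032: aaaaaataaaTATCGATAcacttttcat
BEAF-32/DRE at vers, chr3L:12116022-12116049: aatgttaaatTATCGATAagccaaacca

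All 8 matches lay within 131 bp of an annotated gene start. The matches at Aps (a diphosphatase of inositol phosphates) and NHP2 (a protein of small nucleolar RNA particles) were in their 5′ UTRs, 14 and 11 bp from the start. The match in an intron of CG14995 was 59.0 bp from a start, and the others lay between genes. The boundary at ArfGAP1 (a regulator of Arf GTPases in Golgi traffic) held both motifs and scored -0.250, and that at Ptp69D (a receptor tyrosine phosphatase of axon guidance) scored -0.276 and closes the TAD of the Iroquois genes described below. By score rank, Motif 1 was at 20 of the 111 lowest-scoring boundaries (18%) and at 4 of the 111 highest-scoring (3.6%). The shares for BEAF-32/DRE were 15.3% and 4.50%, for GAGA 17.1% and 15.3%, and for CTCF 20.7% and 13.5%. Boundaries with Motif 1 or BEAF-32/DRE numbered 87 and had a median score of -0.118, against -0.032 for the 357 with neither. None of the 5 lowest-scoring boundaries held either motif, and the match to letters says nothing on which proteins were bound.

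Over all listed boundaries, TADs of about the same typical length covered 3L in the 3 species, although the arm differs in length. The span from the first to the last boundary was 27289 kb in D. melanogaster, 19977 kb in D. busckii and 26453 kb in D. virilis. The median TAD of D. melanogaster was 35.2 kb long (32.5 to 39.1), with quartiles of 18.9 and 65.2 kb. That of D. busckii was 33.9 kb (29.9 to 38.7), with quartiles of 18.4 and 62.1 kb, and that of D. virilis 39.1 kb (34.7 to 42.3), with quartiles of 21.0 and 81.9 kb. The intervals of the 3 medians overlapped. The means, 61.6, 51.4 and 66.6 kb, were pulled up by a few long TADs, and TADs of at most 10 kb made up 14.0%, 11.3% and 11.3%. Boundaries were densest in D. busckii, with 19.5 per Mb. D. melanogaster followed at 16.3 per Mb, and D. virilis was lowest at 15.0 per Mb. The paper reports the most useful Hi-C reads for D. busckii and the fewest for D. melanogaster, and an effect of depth was not tested. With only the 50% of boundaries that scored lowest in each whole list, D. virilis had 8.23 per Mb and D. melanogaster 7.16, so their order turned. The medians lay farther apart, at 48.3 kb in D. busckii, 66.4 kb in D. virilis and 73.1 kb in D. melanogaster. This cut kept unequal shares of 3L. In D. melanogaster the median score of 3L (-0.0501) was above that of the whole list (-0.0787), so under 50% was kept. In D. virilis it was below (-0.0685 against -0.0543), so over 50% was kept. An equal cut on 3L itself was not tested.

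**Figure D1:**
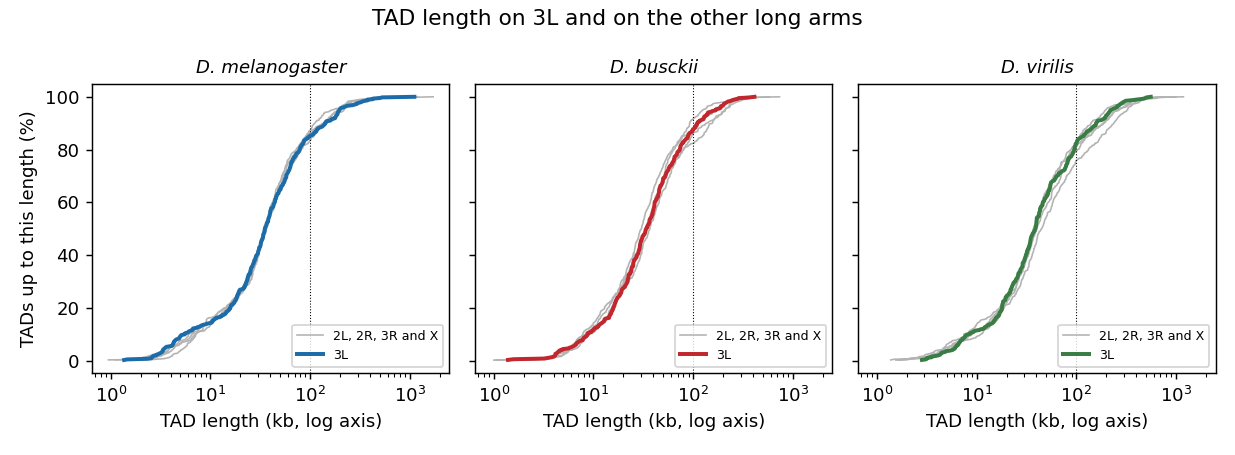
Cumulative share of TADs (vertical axis, percent) by TAD length (horizontal axis, kb, log scale) on 3L (coloured line) and on each of the other long arms (grey lines) of 3 species. The 3L line runs within or beside the grey lines in each panel, with medians of 35.2, 33.9 and 39.1 kb. The dotted line marks 100 kb.

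Counted per gene, the species came closer together. On 3L each boundary came with 6.15 coding genes in D. melanogaster, with 6.01 in D. busckii and with 6.52 in D. virilis, while the coding genes per Mb were 100, 117 and 98.0. On the other long arms the genes per boundary ran from 5.68 to 6.81 in D. melanogaster, from 5.24 to 5.95 in D. busckii and from 5.80 to 6.67 in D. virilis, so 3L had the highest value of the long arms in D. busckii only. The annotations come from different sources and their gene counts are not strictly comparable.

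The span of 3L in D. virilis was 0.969 times that of D. melanogaster, the only long arm with a shorter span in D. virilis, while the spans of the others were 1.10 to 1.43 times as long. The median TAD of D. virilis was still 1.11 times that of D. melanogaster on 3L, against 1.10 on 2L, 1.12 on 3R, 1.26 on X and a lower value on 2R. In D. busckii the span of 3L was 0.732 times that of D. melanogaster, the smallest of 5 long arms, and its median TAD was 0.965 times as long. By median TAD length 3L was the third of 5 long arms in each list, so it sat in the middle of its own genome in all 3 species.

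Long TADs were about as common on 3L as elsewhere. TADs of 100 kb or longer made up 66 of 443 in D. melanogaster (14.9%, 11.7 to 18.6), against 14.0% over all arms. They made up 48 of 389 in D. busckii (12.3%, 9.24 to 16.0), against 12.4% over all arms, and 71 of 397 in D. virilis (17.9%, 14.2 to 22.0), against 19.7%. Each all-arm share lay inside the interval of 3L. These few TADs covered 52.4% of the span of D. melanogaster, 40.8% of that of D. busckii and 54.5% of that of D. virilis. They held 31.0%, 24.3% and 37.1% of the coding genes, at 59.3, 69.9 and 66.8 coding genes per Mb. TADs under 20 kb held 251, 271 and 244 coding genes per Mb.

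**Figure D2:**
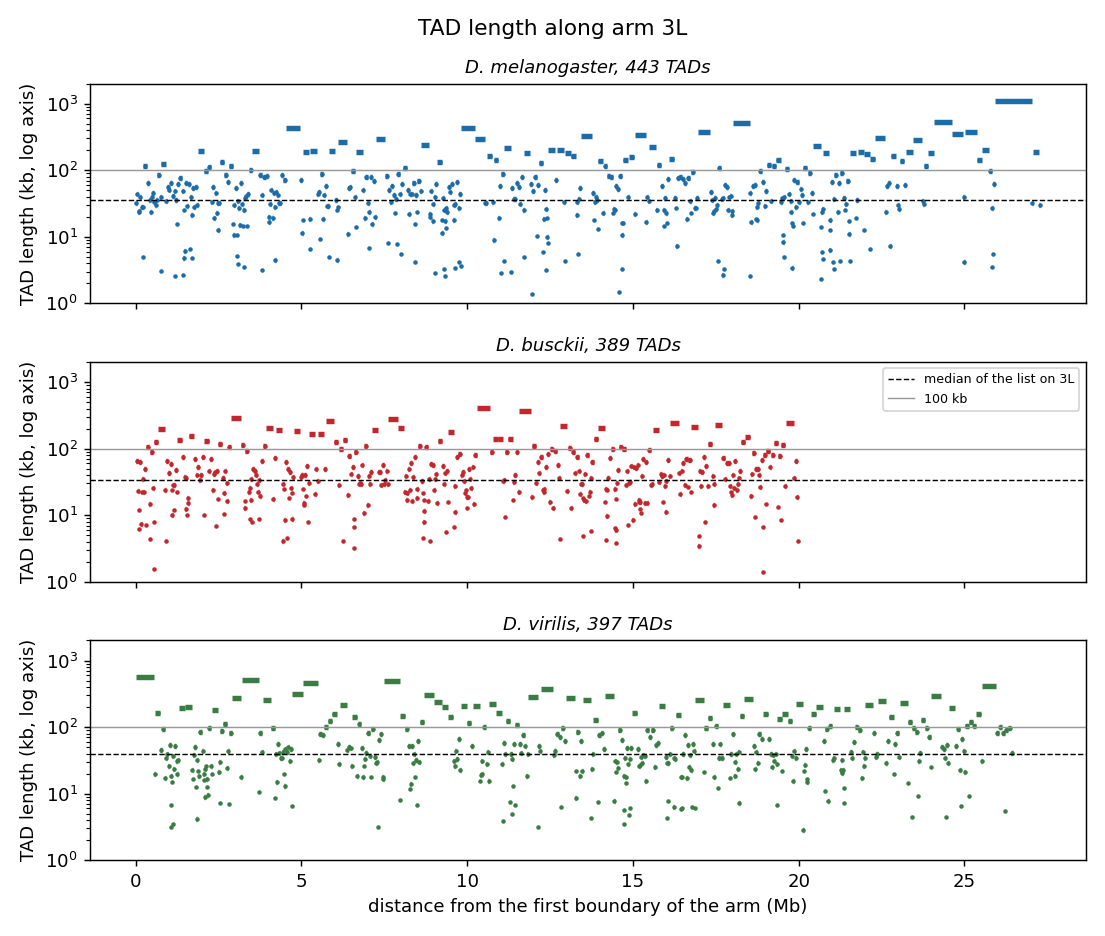
TAD length (vertical axis, kb, log scale) along 3L (horizontal axis, Mb from the first boundary), each TAD drawn as a bar over its own extent with a point at its middle, for 443 TADs of D. melanogaster, 389 of D. busckii and 397 of D. virilis. The dashed line is the median of the arm and the grey line 100 kb. Long TADs gather at the right end in D. melanogaster, where the longest, 1115 kb, lies.

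Along the arm, D. melanogaster changed most, at the end of the list nearest to the centromere. Divided into 10 equal parts of 2.73 Mb, the first 8 held 45 to 61 boundaries each, the ninth 22 and the tenth 16. Boundaries stood at 18.6 per Mb in the first 8 parts together and at 6.96 per Mb in the ninth and the tenth. Coding genes fell with them, from 119 per Mb to 22.9 per Mb, and the tenth part held 16 coding genes in all. The median TAD was 34.9 kb (32.0 to 38.2) in the first 8 parts and 63.3 kb (31.9 to 166) in the last pair, with 405 and 38 TADs. The only 1 Mb window without a boundary, between 26099817 and 27099817, lay in the last part. The last 721 kb of the sequence, with 2 coding genes, had no boundary. Repeats cannot be mapped uniquely, and the share of this end that the map covers was not tested.

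D. busckii had its sparse stretch in the middle of the arm. The sixth of 10 parts of 2.00 Mb held 25 boundaries, against 34 to 49 in the others, and 124 coding genes, against 189 to 273. Its median score was 0.055, the only part of D. busckii with a median above 0. The longest and the second longest TAD of the arm, 413 and 363 kb, lay there. The end parts of D. busckii held 47 and 37 boundaries, so neither end thinned out as in D. melanogaster.

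Over the 10 parts, each of 2.65 Mb, D. virilis was unlike both. The first and the sixth part held the most boundaries, 51 each, and the second and the tenth the fewest, 30 and 33. The second part had 195 coding genes and the tenth 201, the lowest of the arm, while the others had 245 to 315. The median TAD was 24.6 kb in the first part, the shortest, and 60.2 kb in the tenth, the longest. The parts begin at the first boundary and leave out the first 686 kb of the arm, which had no boundary and 5 coding genes. The first part itself opens with the longest TAD, of 562 kb with 4 coding genes. The outermost stretch at this end was thus sparse, although the first part as a whole was not. The orientation of the D. busckii and D. virilis arms is not given in the sources used here, so the ends cannot be matched to the centromere or the tip.

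**Figure D3:**
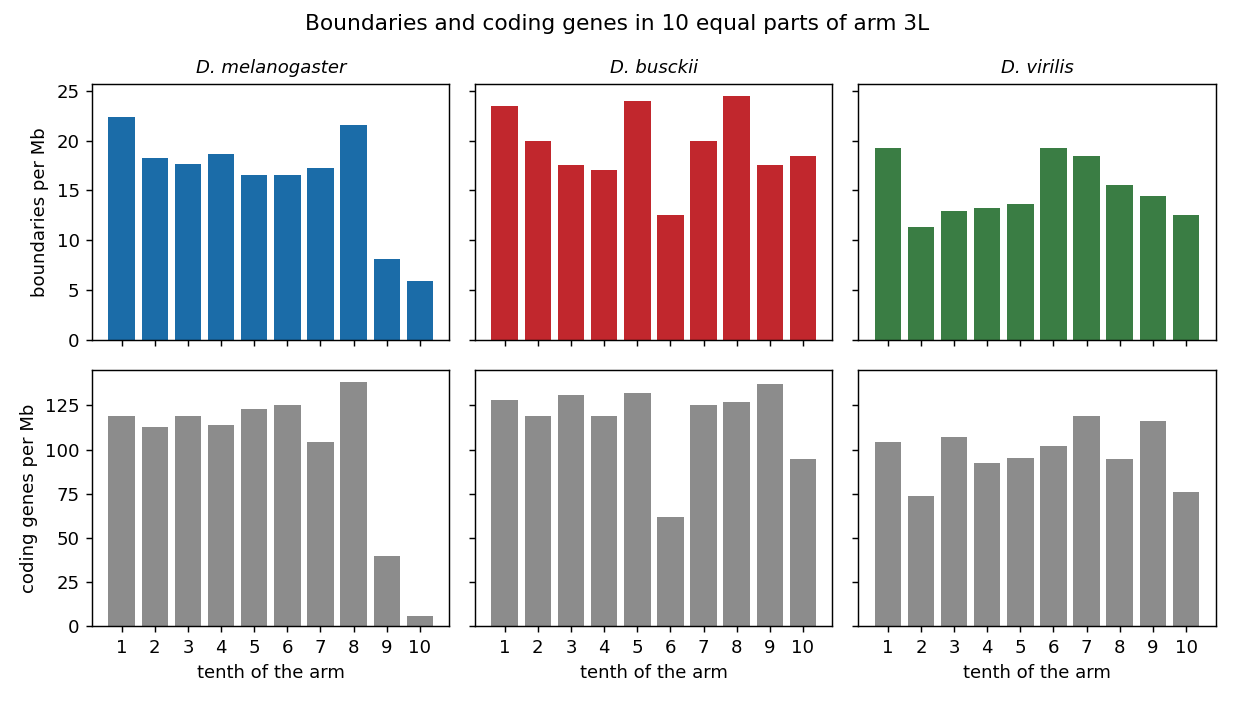
Boundaries per Mb (upper row) and coding genes per Mb (lower row) in 10 equal parts of the span of 3L (horizontal axis) in 3 species, one bar a part. Both fall together in parts 9 and 10 of D. melanogaster (8.06 and 5.86 boundaries per Mb) and in part 6 of D. busckii (12.5 boundaries per Mb), and part 2 is the lowest in D. virilis (11.3 boundaries per Mb).

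Over 1 Mb windows, as a description, boundaries and genes followed each other along the arm in D. melanogaster and D. virilis, and only weakly in D. busckii. Spearman's rho of their counts was 0.78 in D. melanogaster (27 windows), 0.34 in D. busckii (19 windows) and 0.56 in D. virilis (26 windows). Without the last 5 windows the value in D. melanogaster was 0.59 over 22. Lengths of neighbouring TADs showed next to no rank relation, with rho of -0.06, -0.06 and -0.04 over 442, 388 and 396 pairs. The longest run of consecutive TADs of 100 kb or longer had 4 TADs in D. melanogaster (chr3L:23884144-25060965, in the sparse end), 3 in D. busckii and 5 in D. virilis (chr3L:9255828-10262768).

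The longest TAD of 3L, in D. melanogaster, spanned 1115 kb at chr3L:26021626-27136446 and held 4 coding genes. The longest of these was CG42598, 17.2 kb. Its ends scored -0.123 and -0.040, and the start of vtd, the kleisin subunit of cohesin, lay 0.0790 kb from the end nearer the centromere. The second, 527 kb at chr3L:24185670-24712695, held 3 coding genes by midpoint: Snap25 (225 kb, vesicle fusion at synapses), nvd (76.8 kb, an early enzyme of ecdysone synthesis) and mRpS5 (6.30 kb, a mitochondrial ribosomal protein). Its ends scored 0.018 and 0.195, and the nearest gene starts were 105 and 11.5 kb away, the latter that of the homeobox gene scro. These TADs held 3.59 and 5.69 coding genes per Mb, against 100 over the arm.

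The other long TADs of D. melanogaster were in the gene-rich part of the arm. The TAD of 506 kb at chr3L:18112897-18618743 held 31 coding genes, among them hid (17.9 kb). The TAD of 429 kb at chr3L:9907398-10336494 held 22, among them dpr6 (165 kb) and dpr10 (38.7 kb), cell-surface proteins of the immunoglobulin family that pair neurons with their partners, and bma (59.2 kb). The TAD of 425 kb at chr3L:4626410-5051407 held 30, among them Con (142 kb, the adhesion protein Connectin), RhoGEF64C (103 kb) and axo (57.7 kb). Its low end lay 0.214 kb from a start of the tyrosine kinase gene Src64B. In these 3 the gene density was 51.3 to 70.6 per Mb.

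The 5 longest TADs of D. virilis were 413 to 562 kb long, on the authors' assembly. The longest, 562 kb at chr3L:685957-1247566, began at the first boundary of the list and held 4 coding genes, or 7.12 per Mb. Its nearest gene starts lay 19.3 and 14.3 kb from its ends, which scored 0.088 and 0.282. The next, 504 kb at chr3L:3886640-4390926 and 496 kb at chr3L:8163408-8658913, held 31 coding genes each, and the longest of these were GJ11396 (157 kb) and GJ13712 (147 kb). The fourth, 467 kb at chr3L:5719468-6186666 with 17 coding genes, contains a joint between assembly pieces, 192 kb from the nearest boundary. The fifth, 413 kb at chr3L:26229465-26642391, held 22 coding genes, the longest GJ15467 (178 kb). At the 8 ends of the TADs from the second to the fifth a gene start lay 0.00500 to 0.470 kb away.

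In D. busckii the 5 longest TADs were 413, 363, 285, 280 and 260 kb. They held 14, 22, 11, 18 and 23 coding genes, or 33.9 to 88.5 per Mb. The longest of D. busckii was thus as long as the fifth of D. virilis and shorter than the fifth of D. melanogaster, 425 kb. Each of these 5 held more genes per Mb than the longest TAD of the other species.

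The D. virilis arm was assembled from 10 pieces of 6 scaffolds, and 5 pieces of a single scaffold made up 92.7% of it. Of its 9 joints, 4 lie between pieces of that scaffold. Just 1 boundary (0.251% of 398) lay within 5000 bp of a joint, where 0.294% of the span lies. The 7 TADs with a joint had a median of 104 kb, against 38.6 kb for those without. A long TAD has more room for a joint, and TADs of 100 kb or longer covered 54.5% of the span. No boundary lay in the first 686 kb of the arm, which holds 5 coding genes and 1 joint.

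The score of a boundary is the authors' TAD-separation score. It is lower where fewer contacts cross, and it was compared only within a list. On 3L of D. melanogaster the median was -0.0501 (-0.0623 to -0.0322), the highest of 5 long arms. That of the other long arms together was -0.0846 (-0.0912 to -0.0783). Scores above 0 numbered 159 of 444 (35.8%), against 28.8% over all arms. Without the ninth and the tenth part the values were -0.0524 and 34.2%. By share, scores above 0 were most frequent in the tenth part, with 11 of 16 and the only median above 0 (0.031), then in the first with 30 of 61, and least in the fourth with 8 of 51. In D. busckii the 3L median was -0.0720 (-0.0957 to -0.0534), with 35.9% above 0 against 38.7% over all arms. In D. virilis it was -0.0685 (-0.0906 to -0.0485), with 32.7% against 36.0%. The higher median on 3L was not seen in those lists, where 3L held the second and the fourth rank of 5.

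**Figure D4:**
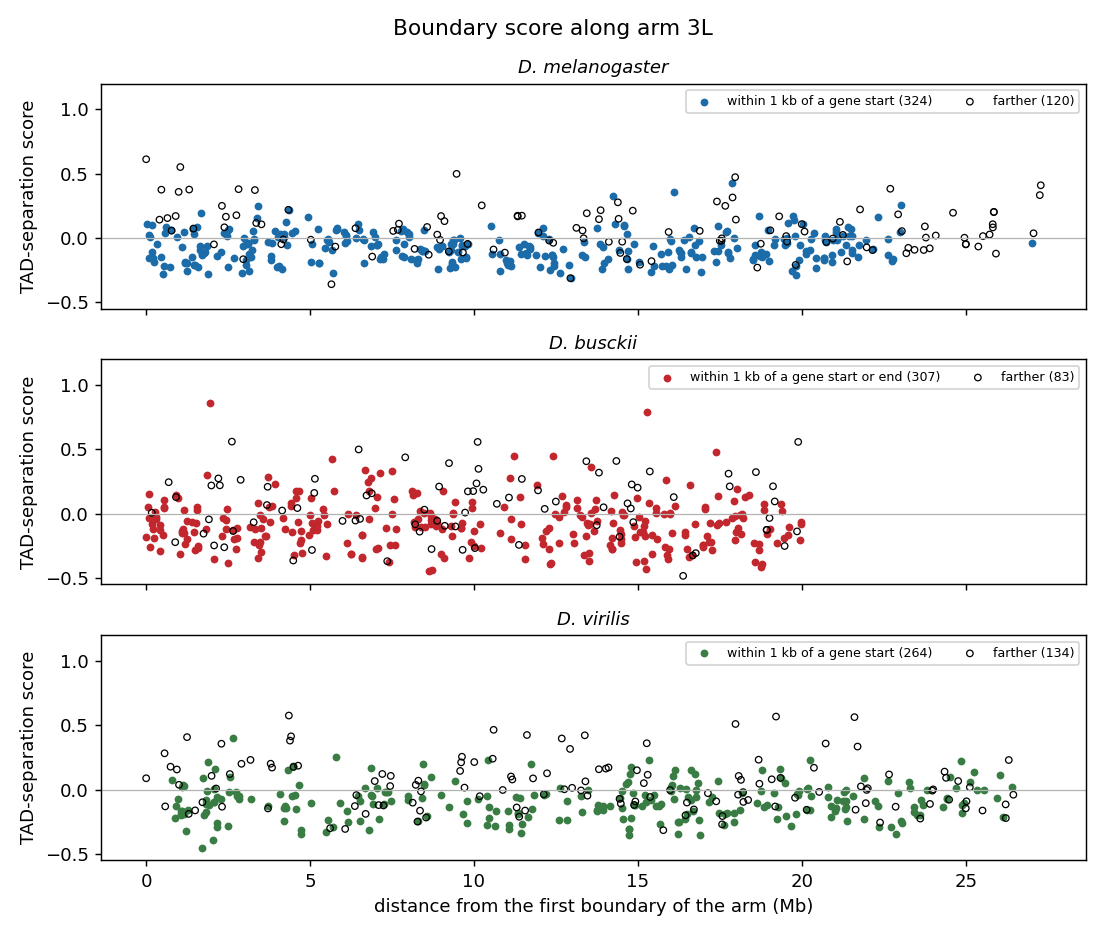
TAD-separation score of each boundary (vertical axis, no unit) along 3L (horizontal axis, Mb from the first boundary). Filled points lie within 1 kb of a gene start (in D. busckii, of a gene start or end), open points lie farther. Open points lie higher on the whole, with median scores of 0.053 (D. melanogaster), 0.067 (D. busckii) and 0.012 (D. virilis), although the highest scores of D. busckii are filled points, and scores are not comparable between panels.

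The lowest-scoring boundary of D. melanogaster, -0.361 at chr3L:5750574-5751622, lay over the gene of the Hsp40 chaperone DnaJ-1, 1.09 kb from its start. The next pair, -0.314 each, stood 4.26 kb apart at chr3L:13040016-13041463 and chr3L:13044577-13045428 and enclosed the ribosomal protein gene RpS4. The nearest starts were those of RpS4 (1.02 kb) and of Syx13, a membrane fusion protein (0.364 kb). The fourth (-0.286) lay 0.503 kb from a start of RhoGDI and the fifth (-0.282) 0.0935 kb from CG11815. Expression of these genes was not measured here. The highest scores were 0.612 at the first boundary of the list, 1.44 kb from CG12483, then 0.551 inside bab2, 35.9 kb from its start, and 0.498 inside CG42673, 15.2 kb from the nearest annotated transcript start.

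In D. virilis the 5 lowest scores ran from -0.452 to -0.344, and all 5 lay 0.402 to 0.763 kb from a gene start, the lowest at GJ11294. The 3 highest, 0.576, 0.568 and 0.564, lay 6.37 to 9.55 kb from one. In D. busckii the scores ran from -0.484 to 0.863. The lowest closed a TAD of 247 kb that held 31 coding genes, the second richest of that arm.

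Boundaries of 3L lay close to gene starts. In D. melanogaster 324 of 444 centres (73.0%, 68.6 to 77.1) were within 1 kb of an annotated start, where 22.9% of the span lies, and the share over all arms was 76.5%. In D. virilis 264 of 398 (66.3%, 61.5 to 71.0) were, where 19.0% of the span lies, and the share over all arms was 65.5%. For D. busckii the gene table gives no strand. There 307 of 390 centres (78.7%, 74.3 to 82.7) were within 1 kb of a gene start or end, where 29.9% of the span lies, against 75.0% over all arms. Median distances were 0.326, 0.411 and 0.321 kb.

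The share near a start was lower where the arm of D. melanogaster was sparse. It was 73.3% to 85.4% in the first 8 parts, 40.9% (9 of 22) in the ninth and 6.25% (1 of 16) in the tenth. Coding genes were also few there, at 39.9 and 5.86 per Mb. The share of sequence near a start was not computed by part, so the fall has no background. In D. virilis it ran from 54.5% to 73.2% over the parts, and in D. busckii from 60.0%, in the sparse sixth part, to 85.1%. Score and nearness went together on the arm. In D. melanogaster the median score was -0.080 within 1 kb and 0.053 beyond. The values were -0.096 and 0.067 for D. busckii and -0.094 and 0.012 for D. virilis. Of the 111 lowest-scoring boundaries of D. melanogaster 91.0% were within 1 kb, of the 98 of D. busckii 85.7% and of the 100 of D. virilis 83.0%. Of as many highest-scoring boundaries 44.1%, 57.1% and 40.0% were.

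Of the boundary centres of 3L in D. melanogaster 65.8% lay in a coding gene, as did 64.2% of the span. In D. busckii 53.1% did (57.9% of the span) and in D. virilis 53.0% (61.7% of the span). Of the 151 centres between genes in D. melanogaster, 59 lay between divergent genes, 80 between genes of the same strand and 12 between convergent genes. Divergent genes thus flanked 39.1% of them, against 47.6% over all arms, and genes of the same strand 53.0%, against 43.8%. In D. virilis the 179 centres between genes split into 77, 83 and 19, of which the divergent made up 43.0%, against 42.0% over all arms, and those of the same strand 46.4%, against 47.4%. Some long genes were cut several times: l(3)80Fg (216 kb) held 5 boundary centres, Svil (122 kb, the actin-binding protein supervillin), Eip75B (114 kb, an ecdysone-induced nuclear receptor) and klar (107 kb, a regulator of organelle transport) held 3 each, and 22 genes held at least 2. In D. virilis 8 genes and in D. busckii 4 held at least 2, with a most of 3 in either. The arm has 2739 coding genes in D. melanogaster, 2605 in D. virilis and 2356 in D. busckii. The annotations come from different sources, so these counts are not strictly comparable between species. A long gene has more room for boundaries than a short gene, and this was not adjusted for.

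A TAD of 3L held a median of 4 coding genes by midpoint in D. melanogaster (quartiles 2 and 8). The median was 5 in D. busckii (quartiles 3 and 8) and also in D. virilis (quartiles 2 and 9). TADs without any numbered 27 (6.09%), 6 (1.54%) and 16 (4.03%). The longest of these were 189 kb in D. melanogaster (chr3L:23348671-23537816), 53.4 kb in D. busckii and 81.9 kb in D. virilis. The richest TAD of D. melanogaster packed 52 coding genes into 146 kb at chr3L:16202091-16347979, most of them small (the longest, CG4998, is 6.24 kb). The second held 47 in 296 kb, with lqf (the endocytic protein epsin), Pura and ltl, and the third 33 in 182 kb, with byn (the Brachyury-like factor of the hindgut) and prc. The richest TADs of D. busckii and D. virilis held 49 in 190 kb and 47 in 140 kb.

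Gene clusters of 3L mostly lay inside single TADs of D. melanogaster. The Iroquois genes ara, caup and mirr, homeobox factors of the eye, wing and nervous system, shared a TAD of 201 kb between boundaries of -0.222 and -0.276, and their starts lay 41.2 to 75.4 kb from the nearest of these. The cell death genes hid, grim, rpr and skl, whose products block inhibitors of caspases, shared the TAD of 506 kb, with starts 72.7 to 220 kb from a boundary. The 6 small heat shock genes matched (Hsp22, Hsp23, Hsp26, Hsp27, Hsp67Ba and Hsp67Bc) shared a TAD of 37.8 kb, the 3 Dorsocross T-box genes 1 of 48.6 kb, Sox21a, Sox21b and D (the Sox factor Dichaete) 1 of 139 kb, and kni and knrl, nuclear receptor-like factors of segmentation and tracheae, 1 of 229 kb, while eg lay in another.

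Structural and secreted protein clusters were placed likewise. All 10 Lcp65A cuticle genes lay in a TAD of 35.2 kb, all 11 Eig71E ecdysone-induced genes in 1 of 221 kb, the 4 Jon65A proteases in 1 of 192 kb, the glue genes Sgs3, Sgs7 and Sgs8 in 1 of 36.5 kb and the 4 chorion genes of the eggshell in 1 of 238 kb, which also held the start of dally, a heparan sulfate proteoglycan of Wnt and BMP signalling. The Bearded family members Brd, Tom and BobA shared 39.8 kb, and the Pax genes eyg and toe 50.4 kb. The antifungal Drosomycin family was split over 3 TADs, with 4 genes in 30.8 kb, Drsl1 and Drsl6 in 14.3 kb and Drs itself in 25.4 kb. A boundary of score 0.551 separated the starts of bab1 and bab2. Its score was among the 3 highest of the arm, so by score it was among the weakest. The starts of the leucine-rich repeat genes trn and caps were separated by a boundary of 0.078. Short clusters have less room for a boundary than long ones, and this was not adjusted for.

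Over all coding genes of 3L the start lay a median of 9.48 kb from a boundary, with 418 of 2739 (15.3%) within 1 kb, against 16.0% over all arms. Ribosomal protein genes lay closer: 7 of 14 were within 1 kb and the median was 0.975 kb. RpS9 lay at 0.0690 kb, RpL26 at 0.104 kb and RpL14 at 0.249 kb, while RpS12 lay at 16.5 kb and RpL15, in the heterochromatic end, at 91.9 kb. The 11 signalling genes had a longer median, 24.4 kb. Of them 0 were within 1 kb, but at the share of 15.3% over the arm few of 11 would be. Among these signalling genes emc, an inhibitor of bHLH factors, lay at 1.10 kb, rho, which releases EGF ligands, at 25.2 kb, fz, the Wnt receptor Frizzled, at 54.4 kb and dally at 109 kb. The gene hry, listed for this group under its older symbol h, was not counted and lay at 6.10 kb. Of 6 ecdysone-response genes 2 were within 1 kb (ftz-f1 at 0.117 kb and Eip63E at 0.222 kb), and of 10 chromatin genes 1 was, pzg at 0.281 kb. Trl, which encodes GAGA factor, lay just beyond 1 kb, CTCF at 17.2 kb and Pc, the Polycomb protein, at 31.5 kb. In D. virilis 14.0% of 2605 coding gene starts were within 1 kb, against 13.7% over all arms, with a median of 10.5 kb.

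Genes with the same or an older symbol in both annotations linked 3L of D. melanogaster to that of D. virilis. Of 58 such genes 56 were on 3L in both, 39 of them coding and the rest microRNAs. The exceptions were RpL15, on 3R in D. virilis, and HipHop, a telomere capping protein, on 2L. The order was reshuffled. Of 55 neighbouring pairs in D. melanogaster 21 were neighbours in D. virilis, and Spearman's rho of the positions was -0.50 over the 56 genes. The TADs that held the matched gene starts had a median of 69.0 kb in D. melanogaster against 70.8 kb in D. virilis, and 32 of 56 were longer in D. virilis. Symbols were given to well-studied genes and are no random sample of the arm.

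Some short stretches kept their gene order, and the TADs in them were partly alike. The longest matched stretch ran from mir-190 through Nelf-E, RpL14 and hry (the pair-rule factor hairy) to the chorion genes. From Nelf-E to hry was 76.3 kb in D. melanogaster, as against 77.3 kb in D. virilis, and from hry to Cp18 51.0 and 52.1 kb, in opposite orientation. In both species hry was the only matched gene of its TAD, of 48.9 and 51.7 kb, and the 4 chorion genes and Prm (paramyosin) shared 1 of 238 and 268 kb. The starts of Nelf-E and RpL14 lay together in unlike TADs, of 68.9 and 28.9 kb, and mir-190 in TADs of 42.5 and 79.1 kb. Cp18 lay 8.19 kb from a boundary in D. melanogaster and 6.82 kb from one in D. virilis. The segmentation gene kni lay in a TAD of 229 kb and 1 of 212 kb. The start of Eip74EF, an ecdysone-induced ETS factor, lay in TADs of 25.8 and 23.9 kb. The D. melanogaster gene is 60.7 kb long and extends beyond its TAD, while the D. virilis gene model has only 6.58 kb. Whether these starts correspond was not tested.

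Other gene starts sat in unlike TADs. That of Trl lay in 16.1 kb in D. melanogaster but in 94.0 kb in D. virilis. For rho the TADs were 76.1 and 189 kb, and for fz 116 and 276 kb. For the odorant-binding protein gene Obp69a they were 5.87 and 136 kb. In the other direction the start of Hsp83, the Hsp90 chaperone, lay in 34.1 and 6.35 kb. That of tra, the splicing switch of female development, lay in 73.2 and 35.5 kb. For Dbp80, at the heterochromatic end of D. melanogaster, the TADs were 191 and 15.5 kb. In D. melanogaster Trl, Hsp83, fz and Dbp80 each run across a boundary, so their values describe only the TAD at the start. Of 17 gene pairs with both starts in one TAD in D. melanogaster, 15 shared one in D. virilis. However, 10 of the 17 came from the chorion genes and Prm. Of the other 7, 5 did. The exceptions were CG14965 with Hsp83, and Rh4 (a rhodopsin) with sina (a ubiquitin ligase of photoreceptor fate). CG14965 and Hsp83 are divergent neighbours in both species. In D. virilis a boundary lay between their starts, 0.0955 and 0.336 kb from them. In D. melanogaster the boundary nearest to the Hsp83 start lay 0.882 kb from it, inside the gene. This exception and the contrast in TAD length at Hsp83 thus rest on which side of the start a nearby boundary was placed. In D. melanogaster sina lay within the annotated span of Rh4, while in D. virilis their lower coordinates were 17021 kb apart. Of 27 pairs with lower coordinates under 100 kb apart in both species, 14 shared a TAD in both, 10 were separated in both, and 3 differed. The pairs share genes and are not independent.

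**Figure D5:**
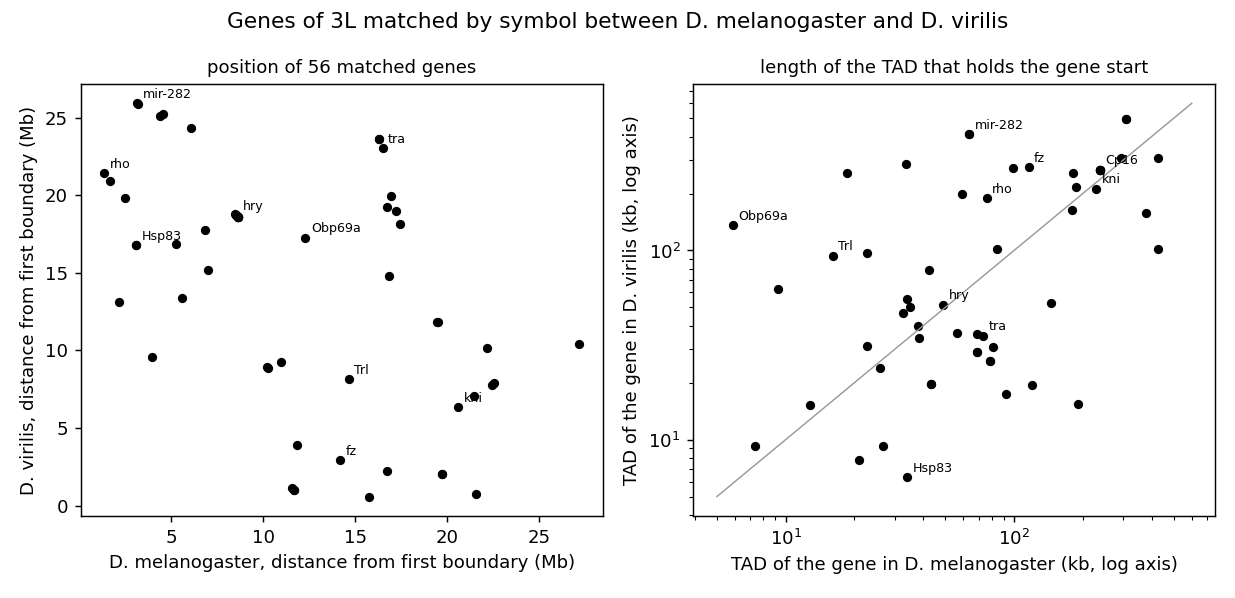
Left, position of 56 genes matched by symbol, in Mb from the first boundary of 3L in D. melanogaster (horizontal) and D. virilis (vertical). Right, length of the TAD that holds each gene start in the 2 species (kb, log scales), with the line of equal length. The points of the left panel follow no single line, and in the right panel hry and kni lie near the line, Trl and Obp69a above it and Hsp83 below.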

How the data were processed

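In situ Hi-C maps of stage 15 to 16 embryos of 3 species were used. The authors mapped reads with BWA, built and corrected matrices at DpnII fragment resolution with HiCExplorer, summed 2 replicates a species and called boundaries with hicFindTADs. The deposited boundary lists give the start, end and TAD-separation score of each boundary. Whether scores can be compared between maps is not given in the sources used here. The deposited D. virilis annotation was moved by the authors from FlyBase scaffolds to their assembly through a deposited chain file. Reads behind a boundary are not in the lists, so the depth per boundary is unknown. The D. busckii Hi-C sample made for assembly and its long-read sample were not analysed here.

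TADs ran from centre to centre of consecutive boundaries. Genes of D. melanogaster came from Ensembl release 115, without transposable elements. On 3L 57.7% of 888 boundary edges lay within 3 bp of a bin centre computed from DpnII sites of the RefSeq sequence, against 1.35% after an offset of 2000 bp. Genes of D. busckii came from a RefSeq table of the same stock. Its build was checked only by position: 78.7% of boundaries were within 1000 bp of a gene start or end, against 35.4% and 34.4% after offsets of 20000 bp to either side. D. busckii and D. virilis sequence was not used here. The genes named are those in and next to the longest and richest TADs, at the lowest and highest scores, those of lists of 3L gene clusters and functions, and those matched by symbol. The members and lists were chosen with earlier results of these data known. Intervals are exact binomial, order-statistic for medians and Clopper-Pearson for shares. The functions were tested on simulated data. No test was run, since each species has 1 list. Python 3.11.15, NumPy 2.4.6, SciPy 1.17.1, pandas 2.3.3 and matplotlib 3.10.9 were used.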

Additional observations from a re-analysis of the deposited data

How the results depend on the processing

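With 1 merged map and 1 list per species, these values say nothing of differences between embryos or libraries. No paired analysis was possible because replicates were summed before boundaries were called. Of 47 alternative values for 19 results, 28 stayed within the interval of the value reported (for densities, within 1.5 times) and 19 moved. With only the stronger 50% of boundaries the median TAD was 73.1 kb (D. melanogaster), 48.3 kb (D. busckii) and 66.4 kb (D. virilis), so D. virilis no longer had the longest median, and there were 7.16, 10.2 and 8.23 boundaries per Mb, so D. virilis no longer had the lowest density. The share within 1 kb of a gene start was then 87.6% in D. melanogaster and 77.3% in D. virilis. Within 500 bp it was 59.0% and 53.5%, and within 2000 bp 83.8% and 77.6%. TADs of 150 kb or longer made up 9.26% (D. melanogaster), 5.91% (D. busckii) and 11.3% (D. virilis). The mean score of D. busckii was -0.0496 and that of D. virilis -0.0472. In 1 Mb windows the sparsest stretch held 0 boundaries per Mb in D. melanogaster and 6 in D. virilis. Without the outer 10% of the span at each end, with whole chromosome lengths, edge-to-edge TADs, the geometric mean, coding transcripts only or genes placed by their start, and in D. virilis without TADs with a joint, no value left its interval.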
